A study of Mus musculus with 19 samples.

Results

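Embryo 3 gave 7 mouse embryonic stem cell (mESC) lines, each grown from a different blastomere of the same 8-cell embryo, and the comparison described here sets its 4 group I lines (3.4, 3.5, 3.6 and 3.7) against its 3 group II lines (3.1, 3.2 and 3.3). They are 7 of the 19 lines sequenced, the others being 5 lines of embryo 1 and 7 lines of embryo 2. The groups are not a treatment and are not given in the sample labels. The study grouped the lines by principal component analysis of their most variable genes after removing differences between embryos, so the groups were selected on the same libraries and the same genes that are compared below. Differences between them within embryo 3 are therefore a description, and no p-value is attached to them.

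Embryos came from B6CBAF1/J mice, and all lines of both groups shared the same culture. Blastomeres were placed on a feeder layer of HFF-1 human foreskin fibroblasts, inactivated with mitomycin C, in serum replacement medium with leukemia inhibitory factor (LIF), the MEK inhibitor PD0325901 and the TGFβ inhibitor SB431542. Feeder cells were removed by letting them attach to gelatin before RNA was extracted, and 1 stranded poly-A library was made per line. Each line comes from 1 blastomere and has 1 library, so the spread between lines of a group holds both line-to-line and technical variation.

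The gene groups that stand out below belong to a few well-known programs. Hypoxia-inducible factor 1 (HIF-1) is a transcription factor whose alpha subunit is marked for destruction by prolyl hydroxylases when oxygen is plentiful, and when it accumulates it raises genes for glucose uptake, glycolysis, lactate export, mitophagy and angiogenesis. ATF4 is the effector of the integrated stress response and raises genes for amino acid transport and synthesis. Naive pluripotent cells resemble the pre-implantation epiblast and express Klf4, Tbx3, Esrrb and Nr5a2, whereas primed cells resemble the post-implantation epiblast and express factors such as Pou3f1, Zic2 and Zic5. MEK inhibition with LIF is widely used to hold mESCs near the naive state.

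The 7 libraries held between 37333487 and 45947577 counts, and 0 of the 171 pairs among the 19 libraries were identical. Depth, the one measure that played no part in the grouping, differed between group I and group II by -0.06 in mean log2 total count (exact permutation test, two-sided, p = 0.5143, where 35 relabelings allow no p below 0.0571). The defining markers of mESCs were high in every line. Pou5f1 lay between 805 and 996 CPM (counts scaled to the library's normalised total) in group I lines, against 726 to 839 CPM in group II lines, and Nanog between 452 and 606 CPM, against 417 to 430.5 CPM. Genes listed as fibroblast markers were present too, with a summed level over 30 genes of 2621 to 3704 CPM in group I lines and 2699 to 3074 CPM in group II lines. Much of the sum came from Fn1, at 1021 to 1178 CPM in group I lines and 1223 to 1316 CPM in group II lines. Other markers were low, such as Lum at 1.67 to 3.81 CPM and 1.07 to 2.25 CPM. Reads of the human feeders and of mouse cells cannot be told apart in counts made against the mouse genome.

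Of 18415 genes with enough counts to fit, 799 were lower (4.34% of those tested) and 237 were higher (1.29%) in group I by edgeR's quasi-likelihood test, with thresholds of 0.05 for the adjusted p and 1.5 for the fold change, used here only to sort genes. Such a gene is said to be called. Nothing is read from these shares, because the contrast is the one along which the lines were grouped. By level alone, the groups did not overlap in 4730 genes (25.7%), of which 2578 had all 4 group I lines below all 3 group II lines and 2152 had all 4 above. In bulk RNA, fewer cells of a type and less RNA per cell cannot be told apart.

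Most genes tested were protein coding, 14806 of 18415. Of these, 759 were lower (5.13%) and 149 higher (1.01%), against 4.34% and 1.29% over all genes. Processed pseudogenes went the other way, with 66 higher (3.66%) and 6 lower (0.333%) of 1804. Long noncoding RNAs were divided more evenly, with 17 higher (1.5%) and 24 lower (2.12%) of 1133.

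Among called protein coding genes that averaged 1 CPM or more and did not overlap between the groups, the 10 largest reductions were those of Ednrb, Fabp7, Kbtbd11, Itgb8, Gjb2, Ndufa4l2, Cxcl12, Pou3f2, Ccnd2 and Fat4. Ednrb, the endothelin B receptor of neural crest cells (GRCm39 chromosome 14, 104052053 to 104081900, minus strand), stood at 0.548, 0.15, 0.261 and 0.162 CPM in lines 3.4 to 3.7, against 2.5, 4.46 and 6.59 CPM in lines 3.1 to 3.3. No group I line reached the lowest group II line, and the log2 fold change was -4.01 (SE 0.48). These are low levels, from 6 to 22 counts in group I lines and 108 to 286 counts in group II lines.

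Several other genes at the head of this list are known from neural tissue. Fabp7, the brain fatty acid binding protein of radial glia, averaged 0.192 ± 0.162 CPM in group I lines and 2.67 ± 1.89 CPM in those of group II (SD, n = 4 and 3, as in all means below). Its group II lines differed widely, since line 3.1 had 0.51 CPM, close to the 0.413 CPM of group I line 3.6, while lines 3.2 and 3.3 had 4.04 and 3.45 CPM. Pou3f2, a POU factor of neural progenitors, averaged 0.339 ± 0.101 CPM in group I lines, against 2.89 ± 0.92 CPM in group II lines, for a log2 fold change of -3.08 (SE 0.33).

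The other genes among these 10 have various roles. Itgb8, an integrin subunit that activates latent TGFβ, averaged 0.234 ± 0.122 CPM in group I lines and 2.31 ± 0.737 CPM in those of group II. Gjb2, the gap junction protein connexin 26, was almost the same in all 4 group I lines, between 0.458 and 0.543 CPM, against 2.34 to 7.09 CPM in group II lines. Ccnd2, the D2 cyclin of the G1 phase, stood at 3.24, 2.53, 1.76 and 3.18 CPM in lines 3.4 to 3.7, against 12.9, 23.3 and 27.6 CPM in lines 3.1 to 3.3, a log2 fold change of -2.99 (SE 0.29). Fat4, a giant protocadherin of the Hippo and planar polarity pathways, was between 0.215 and 0.321 CPM in group I lines, against 1.27 to 2.58 CPM in group II lines.

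The higher genes had smaller or less even differences. Hal, the histidine ammonia-lyase that starts histidine breakdown (chromosome 10, 93324629 to 93355166, plus strand), stood at 10.3, 17.8, 17.7 and 22.5 CPM in lines 3.4 to 3.7, against 3.78, 3.28 and 3.18 CPM in lines 3.1 to 3.3. Its log2 fold change was 2.32 (SE 0.25) and the groups did not overlap. Trpa1, a cation channel of sensory neurons, averaged 5.23 ± 1.15 CPM in group I lines and 1.28 ± 0.449 CPM in those of group II. Penk, the enkephalin precursor, averaged 2.76 ± 1.71 CPM in group I lines and 0.443 ± 0.375 CPM in those of group II, and its lowest group I line, at 1.15 CPM, was not far above the highest group II line, at 0.875 CPM.

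Some of the higher genes rested on line 3.4 more than on the others. The X-linked Pramel3, of the multicopy Prame-like family, had 541, 12, 27 and 32 counts in lines 3.4 to 3.7, against 0, 0 and 1 count in lines 3.1 to 3.3. Fthl17b, a member of an X-linked ferritin heavy chain-like cluster, stood at 5.65 CPM in line 3.4 and 0.964 to 1.19 CPM in lines 3.5 to 3.7, against 0.313 to 0.368 CPM in group II lines. Ccdc152 followed the same shape, with 5.1 CPM in line 3.4, 1.11 to 1.37 CPM in the other group I lines and 0.23 to 0.558 CPM in group II lines. Reads of such multicopy families can be divided between near-identical copies by the authors' counting, so the values of Pramel3, Pramel6 and Fthl17b are uncertain. Vnn1, a pantetheinase, was instead lowest in line 3.4, at 0.797 CPM, with 2.45 to 5.19 CPM in lines 3.5 to 3.7 and 0.536 to 0.737 CPM in group II lines. The remaining 3 of the 10 highest, Gm44505, Pllp and Pramel6, had log2 fold changes of 2.04, 1.87 and 1.82.

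**Figure D1:**
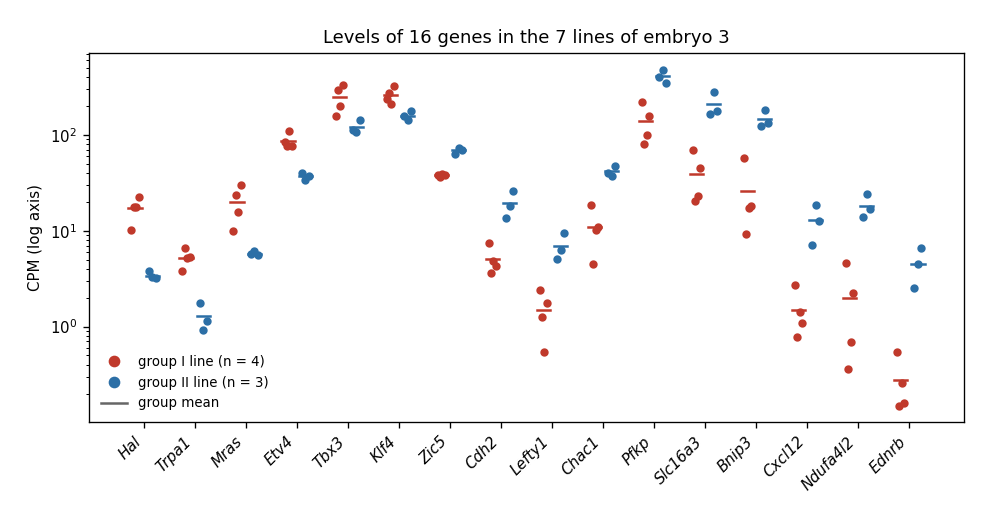
CPM (log axis) of 16 genes in each line of embryo 3, with group I lines in red on the left of each gene, group II lines in blue on the right and a bar at each group mean. All 16 are called genes, and some were named because their groups did not overlap. That the groups do not overlap for any of them therefore follows partly from the selection. Over all genes tested, 25.7% did not overlap. Line 3.4 is the group I line nearest to group II for Bnip3 (58.1 CPM) and Slc16a3 (69 CPM).

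Genes of the hypoxia and glucose programs were lower in group I. Of 24 glycolysis genes tested, 13 were lower, 0 were higher and 17 had groups that did not overlap. Over all genes tested these shares were 4.34%, 1.29% and 25.7%. The median log2 fold change was -0.78, against 0.01 over all genes tested. Of 37 HIF-1 targets outside glycolysis, 21 were lower and 0 higher, with a median of -0.94. The gene lists were chosen with results of these data known, and the contrast is that of the grouping, so these counts describe the lines and test nothing.

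Glucose carbon enters and leaves the cell through transporters that belonged to this set. Slc16a3, the lactate exporter MCT4 (chromosome 11, 120838846 to 120851694, plus strand), stood at 69, 20.5, 23.2 and 45.6 CPM in lines 3.4 to 3.7, against 165, 279 and 179 CPM in lines 3.1 to 3.3, a log2 fold change of -2.39 (SE 0.40). The groups were well separated, and lines 3.5 and 3.6 were the lowest. Slc2a1, the glucose transporter GLUT1, had 577, 275, 269 and 336 CPM in lines 3.4 to 3.7, against 582, 925 and 694 CPM in lines 3.1 to 3.3. Line 3.4 was therefore as high as line 3.1 for Slc2a1, and the difference between the groups came from the other 3 group I lines.

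Enzymes along the pathway showed the same order to unequal degrees. Pfkp, the platelet form of phosphofructokinase, stood at 219, 80.3, 100.1 and 159 CPM in lines 3.4 to 3.7, against 399, 479.9 and 348 CPM in lines 3.1 to 3.3 (log2 fold change -1.55, SE 0.30). Pgk1, phosphoglycerate kinase, stood at 575, 218, 292 and 326 CPM, against 898, 1108 and 1017 CPM. Ldha, the lactate dehydrogenase subunit that makes lactate, stood at 931, 363, 447 and 613 CPM in lines 3.4 to 3.7, against 1352, 1728 and 1463 CPM in lines 3.1 to 3.3. Aldoc, aldolase C, and Pgm1, phosphoglucomutase, had log2 fold changes of -2.08 and -1.85. Gapdh was an exception, with 4287 CPM in line 3.4 and 2413 to 2760.4 CPM in lines 3.5 to 3.7, against 3046 to 3363 CPM in group II lines, so that the highest and the lowest line were both in group I.

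Among HIF-1 targets outside glycolysis, Ndufa4l2, a mitochondrial protein that restrains complex I activity (chromosome 10, 127350818 to 127353038, plus strand), stood at 4.66, 0.364, 0.695 and 2.23 CPM in lines 3.4 to 3.7, against 14, 24.1 and 16.9 CPM in lines 3.1 to 3.3. Its log2 fold change was -3.22 (SE 0.66), and the levels within group I ranged more widely than within group II. Bnip3, a mitophagy receptor (chromosome 7, 138490690 to 138511253, minus strand), stood at 58.1, 9.15, 17.5 and 18.2 CPM in lines 3.4 to 3.7, against 124, 183 and 133 CPM in lines 3.1 to 3.3, a log2 fold change of -2.51 (SE 0.51).

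Some of the targets encode secreted proteins. Cxcl12, the chemokine that acts on Cxcr4, stood at 2.69, 0.771, 1.41 and 1.1 CPM in lines 3.4 to 3.7, against 7.18, 18.8 and 12.7 CPM in lines 3.1 to 3.3. Vegfa, the angiogenic growth factor, stood at 40.8, 29.7, 30.6 and 41.4 CPM, against 77.9, 104 and 79.1 CPM. Adm, adrenomedullin, was between 0.619 and 1.02 CPM in group I lines, while group II held 1 high line, 3.2, at 8.33 CPM beside 1.95 and 2.51 CPM in lines 3.1 and 3.3.

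Hydroxylases that limit the pathway were lower too. Egln3, a HIF prolyl hydroxylase that is itself a HIF target, stood at 19.3, 3.36, 6.12 and 9.55 CPM in lines 3.4 to 3.7, against 23, 64.1 and 30.2 CPM in lines 3.1 to 3.3. Egln1, the main oxygen sensor, had a log2 fold change of -1.08. The mRNAs of the transcription factors themselves were not lower in group I. Hif1a, the alpha subunit of HIF-1, stood at 159, 154, 146 and 128 CPM in lines 3.4 to 3.7, against 123, 92.6 and 119 CPM in lines 3.1 to 3.3, and was not called. Epas1, which encodes HIF-2 alpha, had 157 to 293 CPM in group I lines, against 112 to 142 CPM in group II lines, and was not called either. Vhl, the ubiquitin ligase subunit that recognises hydroxylated HIF, ranged from 24.4 to 36.5 CPM in group I lines and from 27.4 to 31.4 CPM in group II lines.

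Of 42 ATF4 response genes, 10 were lower and 0 higher, against 4.34% and 1.29% over all genes. The median log2 fold change was -0.51. Chac1, which degrades glutathione, stood at 18.4, 4.54, 10.1 and 10.8 CPM in lines 3.4 to 3.7, against 40.3, 37.3 and 47 CPM in lines 3.1 to 3.3 (log2 fold change -1.92, SE 0.35). Vldlr, a lipoprotein receptor, Nupr1, a stress-induced nuclear protein, and Gpt2, the mitochondrial alanine transaminase, had log2 fold changes of -2.19, -1.55 and -1.37. Atf4 itself had 237 to 377 CPM in group I lines, against 410.1 to 447 CPM in group II lines, a log2 fold change of -0.52 that fell short of the 1.5-fold threshold. Asns, the asparagine synthetase often used as an ATF4 reporter, had a log2 fold change of -0.37 and was not called.

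To show what regulatory sequence stands before the genes with the largest differences in these lists, the 300-base windows of 6 of them (250 bases before the start and 50 after, RefSeq, GRCm38.p6) are printed 5′ to 3′. Capitals mark matches to ACGTG or GCGTG, the cores of the hypoxia response element, in the 4 hypoxia and glucose genes, and to TGATGNAA, the CHOP-ATF composite element, in the 2 ATF4 genes, on either strand. The windows are Cxcl12 chr6:117168285-117168584 (plus strand), Bnip3 chr7:138909457-138909756 (minus strand), Slc16a3 chr11:120948817-120949116 (plus strand), Adm chr7:110627407-110627706 (plus strand), Vldlr chr19:27216234-27216533 (plus strand) and Chac1 chr2:119350992-119351291 (plus strand). No window of Ndufa4l2 is shown.

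Cxcl12: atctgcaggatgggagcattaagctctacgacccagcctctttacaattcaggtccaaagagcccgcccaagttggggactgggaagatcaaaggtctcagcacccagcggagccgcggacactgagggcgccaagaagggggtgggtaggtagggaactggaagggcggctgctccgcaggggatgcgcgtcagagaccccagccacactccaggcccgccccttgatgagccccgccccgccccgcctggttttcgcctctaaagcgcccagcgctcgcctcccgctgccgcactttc
Bnip3: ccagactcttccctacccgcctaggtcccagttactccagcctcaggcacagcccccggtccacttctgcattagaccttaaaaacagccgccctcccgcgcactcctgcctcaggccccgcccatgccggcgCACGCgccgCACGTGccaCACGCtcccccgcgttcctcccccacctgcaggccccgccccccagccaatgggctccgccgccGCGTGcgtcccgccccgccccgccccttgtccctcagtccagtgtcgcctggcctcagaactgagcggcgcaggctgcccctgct
Slc16a3: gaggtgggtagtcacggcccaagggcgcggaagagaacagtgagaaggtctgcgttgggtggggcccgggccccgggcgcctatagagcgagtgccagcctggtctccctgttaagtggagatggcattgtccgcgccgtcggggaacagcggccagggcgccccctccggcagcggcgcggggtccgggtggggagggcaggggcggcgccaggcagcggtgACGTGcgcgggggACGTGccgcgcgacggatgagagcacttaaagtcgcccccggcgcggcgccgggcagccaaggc
Adm: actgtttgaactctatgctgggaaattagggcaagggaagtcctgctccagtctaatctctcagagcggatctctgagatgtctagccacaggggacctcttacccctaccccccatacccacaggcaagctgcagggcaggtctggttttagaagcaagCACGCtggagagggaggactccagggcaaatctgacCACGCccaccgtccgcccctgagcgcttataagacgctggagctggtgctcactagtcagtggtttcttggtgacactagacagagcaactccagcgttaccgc
Vldlr: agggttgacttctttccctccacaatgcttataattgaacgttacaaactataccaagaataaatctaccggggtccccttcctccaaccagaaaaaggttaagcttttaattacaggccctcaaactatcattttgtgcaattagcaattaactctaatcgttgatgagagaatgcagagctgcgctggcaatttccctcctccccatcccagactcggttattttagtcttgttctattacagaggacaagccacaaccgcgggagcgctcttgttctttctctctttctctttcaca
Chac1: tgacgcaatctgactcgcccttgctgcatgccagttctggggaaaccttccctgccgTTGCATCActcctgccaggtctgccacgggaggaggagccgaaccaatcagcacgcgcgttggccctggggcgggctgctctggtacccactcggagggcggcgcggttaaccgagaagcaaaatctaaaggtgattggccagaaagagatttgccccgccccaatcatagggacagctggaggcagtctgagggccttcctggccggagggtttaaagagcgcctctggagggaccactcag

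Bnip3 held 5 matches, of which ACGTG read on both strands of CACGTG counts as 2, and Slc16a3 and Adm held 2 each. Cxcl12 held none, and the first of the 2 Vldlr windows held no TGATGNAA, which says only that these letters are not in this window. Either hypoxia core was found in 23 of the 29 called glycolysis and HIF-1 genes with a window (79.3%), in 18 of the 24 that were not called (75.0%) and in 43.8% of 27025 promoters. TGATGNAA was found in 6 of 9 called ATF4 genes (66.7%), in 8 of 26 not called (30.8%) and in 4.06% of all promoters.

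**Figure D2:**
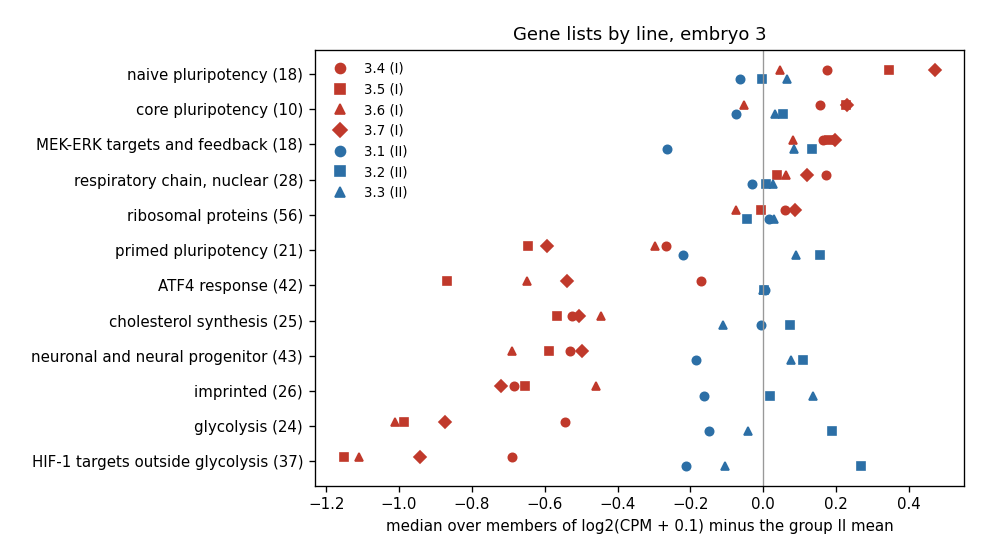
Median over the members of each list of log2(CPM + 0.1) minus the group II mean of the same gene, for each line of embryo 3 (number of members in brackets), with group I lines in red above group II lines in blue. For HIF-1 targets the 4 group I lines lie between -1.15 and -0.69 and the 3 group II lines between -0.21 and 0.27, and for ribosomal proteins all 7 lines lie between -0.08 and 0.09.

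Sterol synthesis genes, which are driven by SREBP2 when cellular cholesterol is low, formed another set that was lower. Of 25 genes, 11 were lower, 0 were higher and all 25 had a negative log2 fold change, with a median of -0.54. Over all genes, 4.34% were lower and 1.29% higher. Msmo1, a C4-methyl sterol oxidase, had 59.6 to 81.6 CPM in group I lines, against 104 to 173 CPM in group II lines.

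The called naive and primed genes went in opposite directions, but most genes of the pluripotency lists were not called. None of the 10 core genes was called, with a median log2 fold change of 0.16. Of 18 naive genes, 3 were higher and 0 lower, against 1.29% and 4.34% over all genes, and 15 were not called. The naive list median, as log2 difference from the group II mean, was 0.05 in group I line 3.6 and 0.07 in group II line 3.3. The groups therefore overlapped on this list. Tbx3, a T-box factor that stabilises the naive network, stood at 158, 292, 199.6 and 333 CPM in lines 3.4 to 3.7, against 113, 107 and 144 CPM in lines 3.1 to 3.3 (log2 fold change 1.02, SE 0.24). Klf4 stood at 235, 276, 209 and 324 CPM, against 159, 142 and 177 CPM. Nr5a2, an orphan nuclear receptor, had a log2 fold change of 0.61. Esrrb and Klf5 did not overlap between the groups either but had log2 fold changes of only 0.38 and 0.38, and Klf2, Sox15 and Dppa3 had small negative values of -0.19, -0.10 and -0.10.

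Of 21 primed genes, 6 were lower and 0 higher, against 4.34% and 1.29% over all genes, and 15 were not called. The primed list median, as log2 difference from the group II mean, was -0.27 and -0.30 in lines 3.4 and 3.6. Group II line 3.1 was close to these, at -0.22. Zic5, a zinc finger factor of the epiblast and neural plate, was the most even of them, with 37.9, 36.4, 39 and 38.5 CPM in lines 3.4 to 3.7, against 63.7, 73.6 and 69.4 CPM in lines 3.1 to 3.3 (log2 fold change -0.86, SE 0.08). Zic2 had 26.2 to 32 CPM in group I lines, against 50.9 to 90.8 CPM in group II lines. Cdh2, N-cadherin, had 3.64 to 7.52 CPM, against 13.6 to 26.1 CPM. Sall2, Pim2 and Pou3f1 had log2 fold changes of -1.23, -0.98 and -0.92. The list did not act as one, since Foxd3 and Nodal had positive values of 0.97 and 0.61 that were not called, with lines 3.5 and 3.7 far above lines 3.4 and 3.6 for both genes. Fgf5, the usual primed marker, stayed at 1.24 to 2.28 CPM in group I lines and 1.51 to 2.25 CPM in group II lines.

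The culture held inhibitors of MEK and TGFβ. Some genes of the MEK-ERK list and of the TGFβ and BMP list differed, but 13 of 18 and 32 of 39 were not called. Of 18 MEK-ERK targets and feedback genes, 4 were higher and 1 lower, against 1.29% and 4.34% over all genes. Etv4, an ETS factor downstream of ERK, stood at 84, 76, 110.2 and 76.1 CPM in lines 3.4 to 3.7, against 40.5, 33.9 and 36.9 CPM in lines 3.1 to 3.3 (log2 fold change 1.22, SE 0.14). Spry4, a feedback inhibitor, had 51.3 to 70.5 CPM, against 21.4 to 34.4 CPM. Mras, a Ras-related GTPase, and Fosl1, an AP-1 subunit, had log2 fold changes of 1.78 and 1.42, and Ier3, an immediate early gene, -1.19. Dusp6 and Egr1, which respond directly to ERK, had values of 0.23 and 0.21 and were not called.

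Of 39 TGFβ and BMP pathway genes, 7 were lower and 0 higher, against 4.34% and 1.29% over all genes, while the median was -0.03. Lefty1, a secreted Nodal antagonist that is itself a Nodal target, stood at 2.39, 1.26, 0.543 and 1.75 CPM in lines 3.4 to 3.7, against 5.05, 6.23 and 9.44 CPM in lines 3.1 to 3.3 (log2 fold change -2.22, SE 0.42). Skil, a SMAD corepressor, had 29.5 to 57.6 CPM, against 84.1 to 107 CPM. Tgfb2, a TGFβ ligand, had a log2 fold change of -2.21. Bmp7, Id1 and Smad3 had smaller differences of -0.88, -0.79 and -0.62.

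Of 43 neuronal and neural progenitor genes, 14 were lower and 0 higher, against 4.34% and 1.29% over all genes, with a median of -0.56. Dcx, the doublecortin of migrating neurons, had 0.0249 to 0.347 CPM in group I lines, against 1.16 to 1.63 CPM in group II lines, which is low in both. Nes, the neural progenitor intermediate filament nestin, had 12.1 to 25.6 CPM, against 41.9 to 51 CPM. Tubb3, a tubulin of neurons, had a value of 0.55 and Pax6 one of -0.38, and neither was called. In the trophectoderm list, whose share of lower genes was near the 4.34% over all genes, 1 of 18 was lower, keratin 19 (Krt19), with 4.95 to 15.3 CPM in group I lines and 31.1 to 47.5 CPM in group II lines. Krt8 and Krt18 instead varied by line, with 13.7 to 16.8 CPM in lines 3.4 and 3.7 and 54.1 to 64.3 CPM in lines 3.5 and 3.6, against 45.9 to 117 CPM in group II lines.

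Imprinted genes are expressed from 1 parental allele and are prone to change in culture. Of 26 tested, 8 were lower and 0 higher, against 4.34% and 1.29% over all genes, with a median of -0.60. Peg10, a paternally expressed gene derived from a retrotransposon, stood at 379, 554, 872 and 329.6 CPM in lines 3.4 to 3.7, against 1142, 1138 and 1323 CPM in lines 3.1 to 3.3 (log2 fold change -1.17, SE 0.28). Its neighbour Sgce had a log2 fold change of -1.47. The maternally expressed Meg3, Rian and Mirg, which lie together in the Dlk1 region, had log2 fold changes of -0.95, -0.87 and -1.01, whereas Dlk1, on the paternal allele of that region, had -0.21 and was not called. Igf2 varied by line, from 2.93 CPM in line 3.7 to 55.2 CPM in line 3.5 among group I lines, against 21.9 to 163 CPM in group II lines.

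The remaining lists had few called genes. Tap2, a peptide transporter of antigen presentation, was 0.651 to 0.673 CPM in group I lines, against 1.81 to 2.12 CPM in group II lines. The class I heavy chains H2-D1 and H2-K1 had log2 fold changes of -0.72 and -0.61. With Irf1 these made 4 lower and 0 higher of 22 genes in that list, against 4.34% and 1.29% over all genes. In the matrix list 3 of 38 were lower and 1 higher, against 4.34% and 1.29% over all genes, and the median was 0.17. Loxl2, a lysyl oxidase, stood at 16.4, 12.6, 9.97 and 15.1 CPM in lines 3.4 to 3.7, against 48.6, 81.2 and 60.3 CPM in lines 3.1 to 3.3, while Lama1, a laminin chain of the early embryo, was higher at 36.8 to 75.3 CPM, against 30 to 32 CPM. In the PI3K-Akt list 4 of 34 were lower, against 4.34% over all genes. Among them were the insulin receptor gene Insr (-1.03) and the mTORC1 inhibitor Ddit4 (-1.54), which is also a HIF-1 target.

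Several housekeeping lists held no called gene in edgeR, namely 56 ribosomal protein genes (median log2 fold change 0.02), 28 nuclear respiratory chain genes (0.09), 13 mitochondrially encoded ones (0.09), 27 cell cycle genes (-0.06), 20 p53 targets (0.10) and 26 lysosome and autophagy genes (-0.21). The 24 germline genes held by DNA methylation had none either (median 0.32). In the Wnt list 1 of 15 genes and in the DNA methylation list 1 of 12 were lower, near the 4.34% over all genes for lists this small. A list with no called gene is not shown to be equal between the groups.

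Line 3.4 was the group I line that lay closest to group II in the largest number of called genes. Over the 799 lower genes its median difference from the group II mean was -0.98 on the log2 scale, against -1.01 to -1.11 in lines 3.5 to 3.7, and it was the group I line closest to group II in 313 of them. Over the 237 higher genes its median was 0.80, against 1.11 to 1.37 in the other 3 lines, and it was the closest in 131. For the hypoxia and ATF4 lists the gap was wider, with medians of -0.69 and -0.17 in line 3.4 and -1.15 and -0.87 in line 3.5. Not every list followed this order. Line 3.6 was the closest for the naive and imprinted lists, with medians of 0.05 and -0.46, against 0.175 and -0.68 in line 3.4. Without line 3.4, 1069 genes were lower and 827 higher. Calls depended on every line, since without line 3.2 they numbered 135 lower and 24 higher, without 3.3 they numbered 182 and 25, without 3.5 332 and 49, without 3.7 376 and 62, without 3.1 462 and 44, and without 3.6 602 and 180.

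Genes of the 2-cell-like state, a rare and fluctuating state of mESCs marked by the Zscan4 cluster, varied widely by line within both groups. Their summed level over 17 genes was 7.0 CPM in line 3.4, 97.6 in line 3.5, 160.5 in line 3.6 and 66.6 in line 3.7, against 43.8, 106.4 and 19.2 CPM in lines 3.1 to 3.3. The highest and the lowest of the 7 lines were both in group I, and 0 of the 17 genes were called, although all 17 had a positive log2 fold change (median 0.81). Zscan4 and Usp17l genes are near-identical copies, so the division of reads among them is uncertain.

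Processed pseudogenes are given by line, beside the fibroblast markers. Over all 1804 tested, the summed level was 8429, 9435, 8599 and 8915 CPM in lines 3.4 to 3.7, against 7832, 7437 and 7771 CPM in lines 3.1 to 3.3. The median difference from the group II mean was 0.16, 0.78, 0.52 and 0.54 on the log2 scale in lines 3.4 to 3.7 and 0.17, -0.18 and 0.04 in lines 3.1 to 3.3. A mean log2 level over only Col1a1, Col1a2, Col3a1, Lum and Dcn, called the fibroblast level below, had nearly the same order. It was 4.00, 5.07, 4.90 and 4.87 in lines 3.4 to 3.7 and 4.43, 3.43 and 4.05 in lines 3.1 to 3.3. Of the 30 markers, 24 had a positive log2 fold change (median 0.59), but only Vim was called higher, and the smooth muscle genes Acta2 and Tagln were called lower, at 7.99 to 11.7 CPM and 10.7 to 14.2 CPM in group I lines, against 19.7 to 54.1 CPM and 24.7 to 52.2 CPM in group II lines. Col1a1, a defining fibroblast collagen, stood at 253, 481, 448 and 489.7 CPM in lines 3.4 to 3.7, against 366, 159 and 293 CPM in lines 3.1 to 3.3, so the groups overlapped. With the fibroblast level as a covariate, 39 genes were lower and 35 higher, and 52 of the 1036 called genes were still called. All 1036 kept the sign of their difference, with a median of -0.99 over the 799 lower and 0.98 over the 237 higher ones. The part of fibroblast RNA in the pseudogene difference was not tested.

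**Figure D3:**
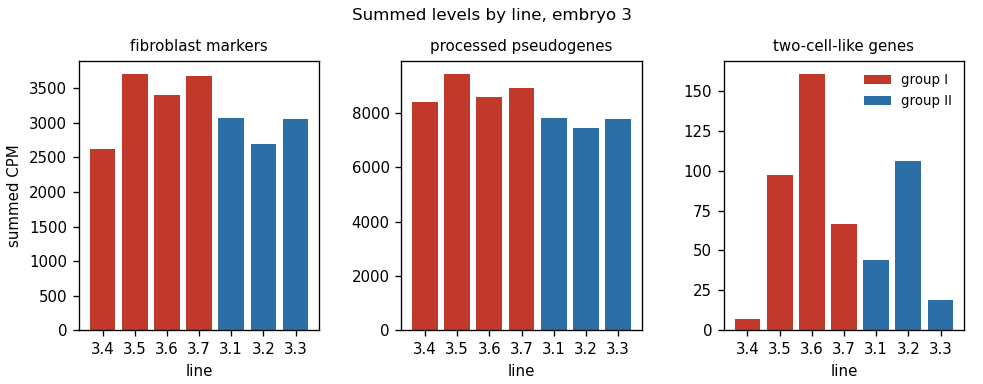
Summed CPM in each line of embryo 3 of 30 fibroblast markers, of 1804 processed pseudogenes and of 17 two-cell-like genes, with group I bars in red and group II bars in blue. Line 3.5 is highest for the fibroblast markers (3704 CPM) and the pseudogenes (9435 CPM), and line 3.6 for the 2-cell-like genes (160.5 CPM).

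Pseudogenes also gave the only on-and-off differences among the named genes. Rpl7a-ps11, a processed pseudogene of a ribosomal protein gene (chromosome X, 165637207 to 165638007, plus strand), had 351, 190, 169 and 273 counts in lines 3.4 to 3.7 and 0 in each of lines 3.1 to 3.3. Group I was at least 261-fold higher, taking 3 counts over the 3 group II lines as the limit that a count of 0 allows. In the other embryos it was also at 0 in all group II lines, while in group I it had 123 to 125 counts in the 3 lines of embryo 1 and was at 0 in 1 of the 4 lines of embryo 2. Gm2436, an unprocessed pseudogene (chromosome 12, 55188894 to 55201681, minus strand), had 108 to 293 counts in group I lines and 0 in each group II line of embryo 3, at least 200.5-fold higher. Its presence did not follow the groups elsewhere, since it was at 0 in 2 of 3 group I lines and in 0 of 2 group II lines of embryo 1. Counts of pseudogenes depend on how reads shared with near-identical copies are divided, so these zeros are uncertain.

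Other noncoding genes had graded differences. AI662270, a long noncoding RNA, stood at 5.63, 37.2, 11.6 and 24.8 CPM in lines 3.4 to 3.7, against 2.9, 3.53 and 2.05 CPM in lines 3.1 to 3.3. Miat, a long noncoding RNA of the nervous system and heart, was lower at 1.47 to 2.65 CPM, against 4.79 to 10.7 CPM. The processed pseudogene Gm16439 was lower too, with 1.18 to 4.75 CPM in group I lines and 8.29 to 13.1 CPM in group II lines. Gm43890, Olfr1372-ps1 and 2610509F24Rik had log2 fold changes of -2.07, -1.64 and -1.54, and Gm43279 and Kank4os 2.57 and 2.06.

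Median levels of several chromosomes were shifted in some lines, though not every gene of a chromosome followed. Each line was compared with the mean of its 6 sister lines over genes of at least 1 CPM. Line 3.1 had a median log2 shift of 0.34 from its sisters over 723 genes of chromosome 8, with 90.2% of them above. Line 3.2 had 0.30 on chromosome 13 (68.6% above), and line 3.6 had a median of -0.44 on chromosome 14 (28.8% above). On chromosome 6, line 3.7 had -0.34 (27.2% above), and lines 3.4 and 3.5 had 0.26 (75.4%) and -0.18 (34.4%). Line 3.3 had -0.16 on chromosome 8 (24.2% above). The other 133 pairs of line and chromosome lay between -0.13 and 0.096. In embryos 1 and 2 the largest shift was 0.42, on chromosome 8 of line 2.2.

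Chromosomes 8 and 14 held the largest shares of lower genes, 64 of 926 (6.91%) and 42 of 631 (6.66%), followed by chromosomes 7 (5.3%) and 12 (5.05%). The other shifted chromosomes, 6 and 13, held 41 of 883 (4.64%) and 28 of 803 (3.49%), against 4.34% over all genes. Ednrb and Gjb2 lie on chromosome 14, Kbtbd11 on 8, and Cxcl12 and Ccnd2 on 6. When the genes of chromosomes 6, 8, 13 and 14 were left out, 742 genes were lower and 271 higher. The part of the chromosome shifts in the levels of these genes was not tested.

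**Figure D4:**
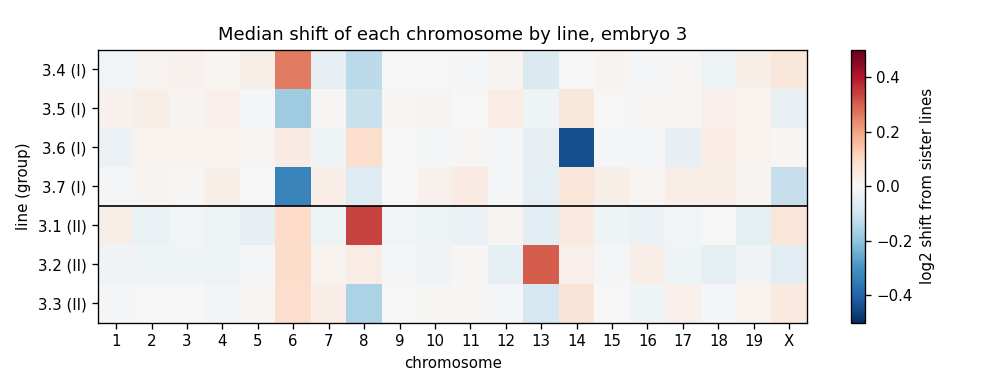
Median log2 shift of the genes of each chromosome (columns) in each line of embryo 3 (rows, group I above group II) from the mean of its 6 sister lines. Red is higher and blue is lower; the strongest cells are chromosome 14 in line 3.6 (-0.44), chromosome 8 in line 3.1 (0.34), chromosome 6 in line 3.7 (-0.34) and chromosome 13 in line 3.2 (0.30).

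Whether the group difference of embryo 3 differs from that of its counterparts was tested in 1 fit over the 19 lines, by setting the difference in embryo 3 against the mean of those in embryos 1 and 2. Of 20333 genes, 0 were called by edgeR's quasi-likelihood test with Benjamini-Hochberg adjustment (0.0%), 1029 had an unadjusted p under 0.05, and DESeq2 called 4. No gene can therefore be called particular to embryo 3 by the edgeR test, which does not show that the embryos were alike. The group labels of embryos 1 and 2 come from the same grouping, except that the principal components left line 2.2 unplaced and the study put it in group II by its gene network analysis. The values that follow are therefore a description.

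The genes with the smallest p were Akr1e1, C1s1, Gm5855, Lima1, Pramel3, Parp3, Tcfl5, 6720427I07Rik, Tgfb2 and Rps15a-ps8, each with an adjusted p of 0.774 in edgeR. Akr1e1, an aldo-keto reductase, averaged 7.83 ± 1.78 CPM in group I lines and 3.36 ± 0.957 CPM in those of group II in embryo 3, while in embryo 1 it averaged 15.2 ± 1.31 and 15.9 ± 1.91 CPM. Lima1, an actin-binding protein, averaged 79.1 ± 4.71 CPM in group I lines and 156 ± 14.9 CPM in those of group II in embryo 3, and 149 ± 10.2 and 179.6 ± 15.1 CPM in embryo 2. Tgfb2 had a log2 fold change of -2.20 in embryo 3, 0.15 in embryo 2 and -0.78 in embryo 1.

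The embryos also differed in Y-linked transcripts. Eif2s3y, a Y-linked translation initiation factor gene, had 5 to 58 counts in each line of embryos 3 and 2, against 2234 to 3380 counts in 4 of the 5 lines of embryo 1 and 62 counts in its line 1.4, which is in group I. Sex chromosome content and embryo cannot be told apart in this comparison. Without line 1.4, an alternative added after seeing the data, the test between embryos again called 0 genes in edgeR, with 1106 at an unadjusted p under 0.05.

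The list medians are given side by side by embryo. The median log2 fold change of HIF-1 targets was -0.93 in embryo 3, -0.96 in embryo 2 and -0.40 in embryo 1, and that of glycolysis -0.77, -0.82 and -0.51. Without line 1.4 the embryo 1 medians were -0.53 and -0.60. The ATF4 list had -0.50 in embryo 3 and -0.58 in embryo 2 but -0.06 in embryo 1 (-0.12 without line 1.4). The neuronal and imprinted lists had -0.55 and -0.59 in embryo 3, close to 0 in embryo 2 (0.0005 and 0.02), and -1.01 and -0.70 in embryo 1.

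Single genes are given beside these medians. Bnip3 had log2 fold changes of -2.50 in embryo 3, -1.88 in embryo 2 and -0.92 in embryo 1, and Slc16a3 had -2.38, -1.76 and -0.75. Ednrb had -3.99 in embryo 3 and -3.33 in embryo 1 but 0.15 in embryo 2, Ccnd2 had -2.98, -2.72 and 0.31, and Cdh2 had -1.92, -1.82 and 0.33 in the same order of embryos. Mras and Etv4 were alike in size in all 3 embryos, at 1.78 and 1.23 in embryo 3, 1.55 and 1.17 in embryo 2 and 1.75 and 1.46 in embryo 1. Tbx3 had 1.03, 1.20 and 1.62. For none of these genes did the test between embryos pass in edgeR, with adjusted p from 0.774 for Ednrb to 0.999 for Mras.

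Among the 799 genes lower in embryo 3, 742 had the same sign in embryo 1 (92.9%) and 640 in embryo 2 (80.1%), against 71.9% and 69.4% of all genes tested, and among the 237 higher ones these were 217 (91.6%) and 216 (91.1%). The fit shares no library between embryos, but the lines of the 3 embryos were grouped together in the same study analyses.

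**Figure D5:**
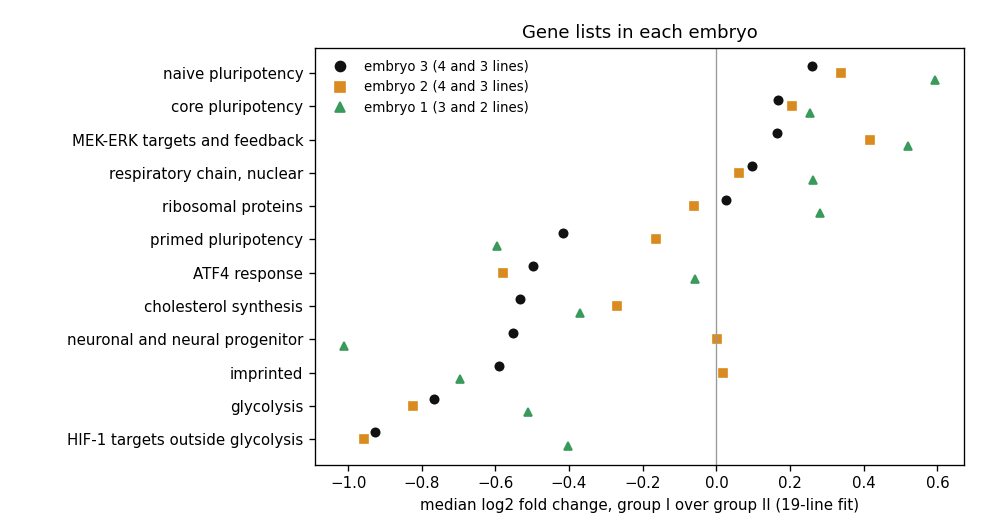
Median log2 fold change of group I over group II for 12 gene lists in embryo 3 (black), embryo 2 (orange) and embryo 1 (green), from the fit over 19 lines. HIF-1 targets lie at -0.93, -0.96 and -0.40, while imprinted genes lie at -0.59, 0.02 and -0.70.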

How the data were processed

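The deposited table holds estimated counts per gene for 19 lines, which the authors made with STAR and RSEM 1.3.0 on GRCm39 and the GENCODE M27 annotation and deposited as whole numbers. Of 55416 genes, 54749 were given a position by the GENCODE M39 annotation of GRCm39. Lines were placed in embryos by their labels and in groups I and II by the study's grouping, line 2.2 by its network analysis. For the 7 lines of embryo 3, counts were filtered with filterByExpr, normalised by TMM, and edgeR 4.0.16 in R 4.3.3 was run with its quasi-likelihood functions, p being adjusted over all genes tested. CPM values use the TMM library sizes. A fit over 19 lines with 1 term per embryo and group gave the contrast between embryos. Fits were tested on simulated data.

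The members and the 27 gene lists were chosen with earlier results of these data known. Named genes were the 10 highest and 10 lowest protein coding and the 5 highest and 5 lowest other called genes with at least 1 CPM and no overlap, up to 4 called genes per list, the 10 smallest p between embryos, and the pluripotency and fibroblast lists. Genes named outside this rule were chosen after their values were seen. List symbols were matched through RefSeq synonyms, and 2 were not matched.

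Alternatives were DESeq2 1.42.0, RLE factors, other filters, no fold threshold, protein coding genes alone, a fit over 19 lines, the fibroblast level as a covariate, lines left out, and, added after seeing the data, 4 chromosomes or line 1.4 left out. Some genes of the lists are not reported here by name.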

Additional observations from a re-analysis of the deposited data

Results flagged for a closer look

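Of 208 values examined, 11 had 1 line standing apart from the rest by the ratio of its gap to the whole range, where chance gives about 1 in 20 in groups of this size. Line 3.4 stood apart from the other group I lines in the log2 levels of Sparc (0.885), Fthl17b (0.884), Col1a1 (0.867), Ccdc152 (0.867), Col3a1 (0.862) and Tcfl5 (0.835), lower than lines 3.5 to 3.7 for the 3 matrix genes and higher for the other 3. Line 3.5 stood apart for Nupr1 (0.857), at 3.32 CPM against 9.23 to 10.9 CPM in the other group I lines. Line 3.6 stood apart in the mean level of the core pluripotency list (0.862) and of the p53 targets (0.869), and was the lowest of group I in both. Among all 7 lines of embryo 3, line 3.2 stood apart on chromosome 13 (0.833) and line 3.6 on chromosome 14 (0.868).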

How the results depend on the processing

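All 1036 called genes kept their sign in every alternative that tested them. Little can be read from this, because the alternatives reused libraries on which the genes were called. With the fibroblast level as a covariate 52 of the 1036 were still called, and without line 3.2 it was 155 of 1035. The count of called genes was less stable, against 237 higher and 799 lower. It was 254 and 780 with RLE factors, 336 and 963 with no filter, 213 and 705 at 1 CPM or more, 227 and 739 for protein coding genes alone, 271 and 742 without chromosomes 6, 8, 13 and 14, 442 and 1013 with no fold threshold, 367 and 773 in the fit over 19 lines, and 665 and 1145 with DESeq2. With the fibroblast level as a covariate it was 35 and 39, and the median of the fibroblast list was then -0.133. The genes of that level are members of the list, so this median was partly set by the covariate. Leaving out 1 line gave 24 to 827 higher and 135 to 1069 lower. In the 19-line fit without lines 3.1, 3.2, 3.6 and 3.7, which leaves 1 group II line assumed to vary like the other groups, 0 genes were higher and 0 lower in edgeR, with 1557 at an unadjusted p under 0.05. Depth limits the genes of fewest counts, such as Ednrb with 6 to 22 counts in group I lines.

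The test between embryos called 0 genes with RLE factors, without line 2.2, without line 1.4, without lines 3.1, 3.2, 3.6 and 3.7 (579 at an unadjusted p under 0.05), and without any single line of embryo 3 (764 to 1259). It called 3 higher and 1 lower with DESeq2, and 2 higher and 0 lower with no filter. Adding line number as a replicate block, the test called 0, with 529 at an unadjusted p under 0.05. Line numbers mark no shared origin between embryos. No paired analysis was possible within embryo 3 because the lines of the groups carry different numbers. The chromosome 13 shift of line 3.2 was 0.358 over genes of at least 10 CPM, and the other 3 shifts moved by less than the spread between lines. The difference in total count kept its sign on the linear scale.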

Other observations

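Primitive endoderm genes, which mark the extraembryonic lineage that naive cultures can give rise to, moved little as a list, with 1 higher and 1 lower of 16. Over all genes, 1.29% were higher and 4.34% lower, so nothing is read from these counts. Gata6, the factor that opens that lineage, had 2.32 to 8.08 CPM in group I lines, against 1.27 to 2.21 CPM in group II lines, and was not called (log2 fold change 1.46). It was highest in line 3.6, which was also the highest line for the 2-cell-like genes. Tsix, the antisense partner of Xist, was called higher, with 26.5 to 36.2 CPM in group I lines and 19.8 to 20.6 CPM in group II lines, while Xist stayed at 1.40 to 3.58 CPM and 1.92 to 3.41 CPM. The library kit keeps strand, but the study reports counting with RSEM at default parameters and names no strand setting. Reads of the overlapping Tsix and Xist may therefore not have been separated by strand, and the Tsix difference is uncertain. Gata6, Tsix and Xist were chosen after their values were seen.

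Rpl7a-ps11 was at 0 in all 8 group II lines of the 3 embryos and above 0 in 10 of the 11 group I lines, a pattern noticed in the same counts that the lines were grouped on. No test was made of it.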
